A study of Arabidopsis thaliana with 27 samples.

Results

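The acute shade response of *hfr1-101* seedlings was read from 6 of the 27 RNA-seq libraries of this Arabidopsis series, chosen by their labels alone: 3 libraries of *hfr1-101* after 1 h of low red to far-red light (LRFR) and 3 of *hfr1-101* in high red to far-red light (HRFR). Whole 7-day-old seedlings were used throughout. HRFR seedlings stayed in white light, and LRFR seedlings received added far-red light for the last hour before harvest at the same time of day. The *hfr1-101* allele is listed in the genotyping notes of the study as a point mutation, a deletion, in *HFR1*, and each library was made from a separate pool of seedlings of this line. The wild type Col-0 and the triple mutant *pif457*, which lacks *PIF4*, *PIF5* and *PIF7* function, each with 3 libraries in HRFR and 3 at LRFR 1 h, were used for comparison.

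Light rich in far-red, as reflected or filtered by neighbouring leaves, inactivates the photoreceptor phytochrome B. Phytochrome-interacting factors (PIFs), which are basic helix-loop-helix (bHLH) proteins that bind the G-box motif, then act on genes of auxin synthesis and cell elongation. *HFR1* encodes an atypical HLH protein that is itself made under shade, pairs with PIFs and keeps them off DNA, so it is known as a brake on the shade response.

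The 3 *hfr1-101* libraries in HRFR held 29.9 to 33.1 M reads in genes, and those at LRFR 1 h held 25.7 to 27.7 M. Levels are given as CPM, which is a gene's reads per 1e+06 reads of its library after TMM scaling, and changes as log2 fold changes (log2FC) with their SE from edgeR. Of the 20887 genes tested, a gene was called as risen or fallen where its adjusted p was below 0.05 and its log2FC lay beyond 0.6 in either direction. After removal of group means, Col-0 HRFR replicate 1 stood apart on the first principal component of the deviations (-33.1), as did Col-0 LRFR 25 h replicate 1 (-39.7), while the other 25 libraries lay between -16.7 and 24.3. Neither of these belongs to *hfr1-101*. Within *hfr1-101* at LRFR 1 h, replicate 1 (21.9, against -14.2 and -7.76) had the lowest of the 3 levels in 231 of the 339 genes that rose, and replicate 3 had the highest in 195.

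*HFR1* transcripts (chr1:465616-467880) rose in *hfr1-101* as they did in the wild type. They were at 20.3, 19.5 and 19.6 CPM in HRFR and 107, 122 and 144 CPM at LRFR 1 h, a log2FC of 2.65 ± 0.15 (SE), beside 2.77 in Col-0. Reads of the mutated gene were therefore counted in every *hfr1-101* library, and the count per gene does not check this label. *PIF7*, encoding the main PIF of the shade response, fell in *hfr1-101* from 51.2, 56.6 and 56.5 CPM to 26.3, 31.1 and 33.5 CPM (log2FC -0.85 ± 0.09). *PIF4* fell from 105, 121 and 116 CPM to 68.9, 74.9 and 77.4 CPM (log2FC -0.63 ± 0.07), a value close to the fold threshold that was not called without HRFR replicate 2 or without LRFR 1 h replicate 1. *PIF1*, which represses germination in darkness, also fell (log2FC -0.82), and *PIF5* changed by a log2FC of -0.41, under the threshold. The light receptor gene *PHYB* moved the other way, from 88.5, 102 and 101 CPM to 247, 262 and 277 CPM (log2FC 1.43 ± 0.08). Of the 12 phytochrome and PIF genes tested, 1 rose and 3 fell. The HRFR and LRFR 1 h libraries of each of these 4 did not overlap, as in 337 of the 339 genes that rose and all 183 that fell.

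In *hfr1-101*, 339 genes rose and 183 fell after 1 h of LRFR, or 1.62% and 0.876% of the genes tested. The rises were larger than the falls. Of the genes that rose, 205 had a log2FC of at least 1, 88 of at least 2 and 19 of at least 4, with a median of 1.16. Of those that fell, 59 changed by a log2FC of 1 or more, 3 by 2 or more and none by 4 or more, with a median of -0.84. The median over all genes tested was 0.01. Without the fold threshold, 533 genes were higher and 493 lower, so most of the added genes were small decreases.

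**Figure D1:**
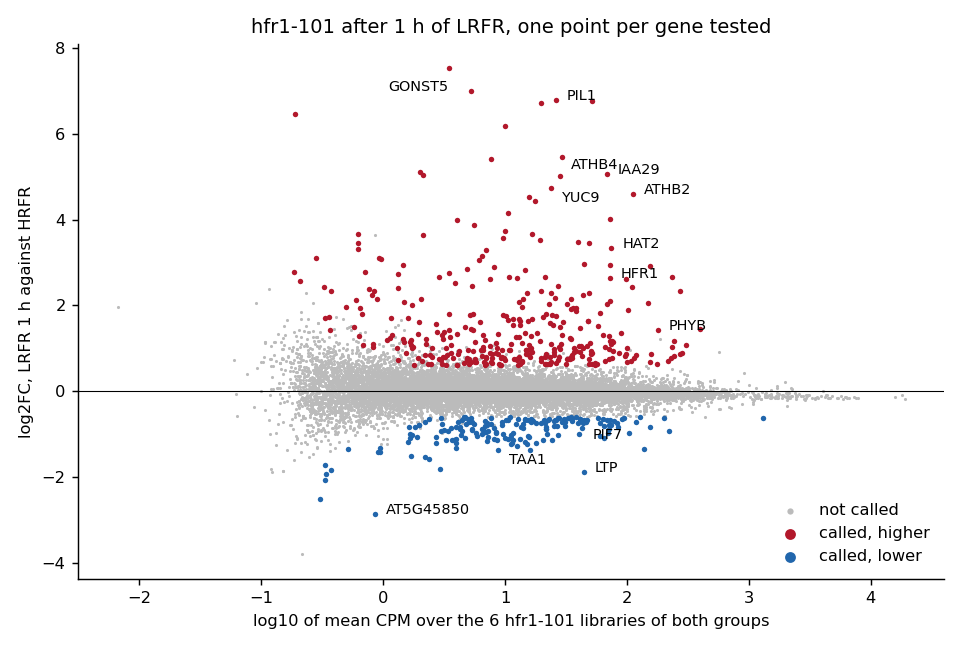
Response of each gene tested in *hfr1-101*. The x axis is the log10 of the mean CPM of the 6 libraries and the y axis the log2FC of LRFR 1 h against HRFR; red points are the 339 genes called higher and blue points the 183 called lower. The called genes run from a log2FC of -2.87 (AT5G45850) to 7.53 (AT3G21320).

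The 15 largest rises among genes of at least 1 CPM started from HRFR means between 0.0333 CPM (AT3G21320) and 8.93 CPM (*ATHB2*). The largest was AT3G21320, which RefSeq names an EARLY FLOWERING protein: 3 reads in the HRFR libraries together and 550 at LRFR 1 h, a ratio of 209 with a 95% exact counting interval of 71.2 to 1017. *GONST5*, a nucleotide sugar transporter gene, had 7 reads in HRFR and 824 at LRFR 1 h (ratio 134, interval 64.9 to 335). These intervals cover counting error only, and both genes were close to silent in white light. AT3G21330, a bHLH gene (chr3:7507240-7509186) that lies close to AT3G21320 (chr3:7498812-7501888), rose from 0.822, 0.966 and 1.08 CPM to 83.1, 108 and 119 CPM (log2FC 6.76 ± 0.28). *FLP1*, a flowering-promoting factor-like gene, rose from between 0.233 and 0.517 CPM to between 31.1 and 45.6 CPM. *RTFL18*, which encodes a small ROTUNDIFOLIA-like peptide, rose from between 0.216 and 0.300 CPM to between 18.5 and 20.3 CPM. The other genes among the 15 were *PIL1*, *ACS8*, AT5G02865, *IAA5*, *IAA29*, AT1G03990, *ATHB4*, *YUC9*, *ATHB2* and *ST2A*, with log2FC from 4.52 to 6.79, and most are described with their families.

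The HLH list holds the non-DNA-binding partners of bHLH proteins together with *PIL1*, a PIF-like bHLH gene long used as a shade marker. Of its 15 members tested, 10 rose and 1 fell, with a median log2FC of 1.63 beside 1.28 in Col-0. *PIL1* was at 0.487, 0.499 and 0.395 CPM in HRFR and at 44.0, 50.1 and 60.9 CPM at LRFR 1 h, a rise of 111-fold. *PAR1*, whose protein blocks PIFs much as HFR1 does, rose from 2.04, 0.999 and 1.15 CPM to 16.0, 18.6 and 21.6 CPM (log2FC 3.73 ± 0.22). Its relative *PAR2* rose from between 10.4 and 13.6 CPM to between 22.9 and 29.2 CPM (log2FC 1.18). In both, every LRFR 1 h library lay above every HRFR library, as in nearly all genes that rose. The *PRE* genes, whose small HLH proteins promote elongation by binding inhibitory bHLH proteins, were split: *PRE1*, *PRE2*, *PRE5* and *PRE6* rose (log2FC 1.91, 2.16, 1.94 and 1.75), while *PRE3* and *PRE4* had 0.70 ± 0.36 and 0.99 ± 0.79 and were not called. *AIF4* and *AIF3*, which encode partners of PRE proteins, rose by 1.63 and 0.88 on the log2 scale. *AIF1* was the member that fell, at a log2FC of -0.62, and its call was lost on leaving out HRFR replicate 2, HRFR replicate 3 or LRFR 1 h replicate 1.

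HD-ZIP II transcription factors are early shade markers that promote elongation and leaf polarity. Of the 10 genes tested, *ATHB2*, *ATHB4*, *HAT1*, *HAT2* and *HAT3* rose and the other 5 were not called, at log2FC from 0.19 to 0.44. *ATHB2* went from 8.64, 9.12 and 9.02 CPM to 202, 214 and 229 CPM (log2FC 4.59 ± 0.11). *ATHB4* went from 1.64, 1.60 and 1.83 CPM to 47.7, 61.4 and 55.6 CPM (log2FC 5.02 ± 0.14). Its LRFR 1 h mean of 54.9 ± 6.88 CPM (SD, n = 3) stood beside 25.5 ± 4.44 CPM in Col-0, from HRFR means of 1.69 and 1.70 CPM. *HAT2* rose from between 12.3 and 13.9 CPM to between 130 and 140 CPM, *HAT3* from between 9.23 and 10.5 CPM to between 31.2 and 36.9 CPM, and *HAT1* from between 45.3 and 50.4 CPM to between 98.1 and 103 CPM. The HRFR and LRFR 1 h ranges did not overlap in any of the 5 genes, as in nearly all genes that rose.

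**Figure D2:**
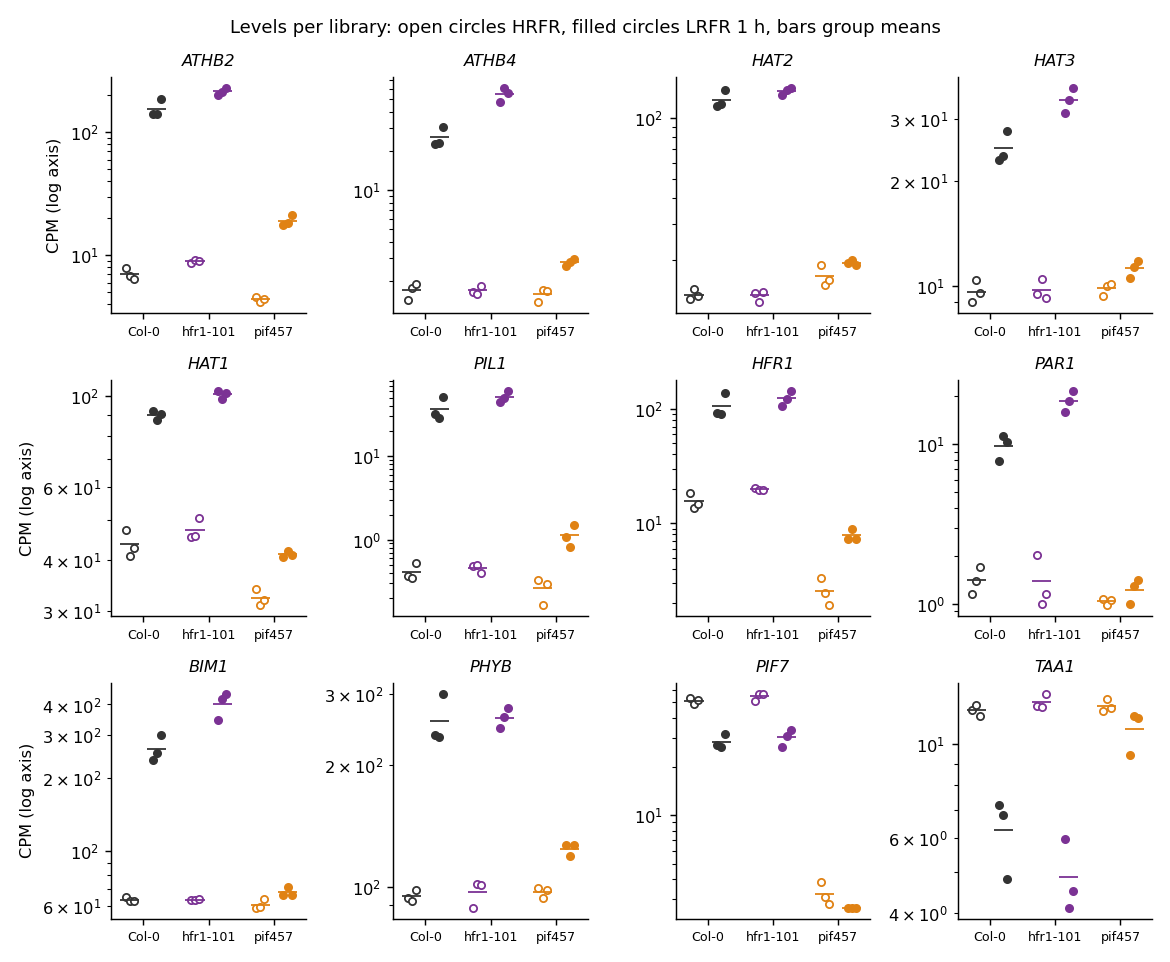
Level of 12 genes in each library of Col-0, *hfr1-101* and *pif457*. The y axes are CPM on a log scale with a range of their own; open circles are HRFR libraries, filled circles LRFR 1 h libraries and bars group means (n = 3). In *hfr1-101* the filled circles lie above the open ones for every gene shown except *PIF7* and *TAA1*, where they lie below.

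Of 11 auxin biosynthesis genes tested, 4 rose and 1 fell. The flavin monooxygenase genes *YUC2*, *YUC5*, *YUC8* and *YUC9*, for the last step of auxin synthesis, rose, while *YUC1*, *YUC3*, *YUC4* and *YUC6* were not called. *TAA1*, for the step before it, fell, and *TAR2*, for the same step, was not called at a log2FC of 0.02. *YUC9* rose from 1.86, 1.53 and 1.76 CPM to 35.7, 53.2 and 49.8 CPM (log2FC 4.75 ± 0.21), and *YUC8* from 2.89, 3.4 and 2.87 CPM to 27.5, 37.7 and 41.2 CPM (log2FC 3.54 ± 0.21). *TAA1*, which encodes the aminotransferase also known as SAV3, fell from 12.3, 12.3 and 13.1 CPM to 5.99, 4.11 and 4.50 CPM (log2FC -1.37 ± 0.13). *YUC2* and *YUC5* had log2FC of 1.69 and 2.86.

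Of 27 *Aux/IAA* genes tested, which encode short-lived repressors of auxin signalling, 11 rose, none fell and 16 were not called (median log2FC 0.53). *IAA29* rose from 3.07, 4.53 and 4.49 CPM to 112, 130 and 160 CPM (log2FC 5.06 ± 0.19). *IAA19* rose from 7.73, 7.93 and 8.73 CPM to 79.0, 90.7 and 97.7 CPM (log2FC 3.46 ± 0.16). *IAA5*, *IAA6* and *IAA1* had log2FC of 5.11, 3.07 and 2.83. Of 61 *SAUR* genes tested, many of which encode growth-promoting proteins, 26 rose, none fell and 35 were not called (median log2FC 0.39). *SAUR22*, *SAUR23* and *SAUR19* had log2FC of 4.44, 3.65 and 3.56, but these lie in 1 tandem cluster on chromosome 5 and how near-identical copies were counted is not given in the sources used here, so the share of each is uncertain. *SAUR28* (chr3:979976-980562), outside that cluster, rose from between 0.359 and 0.533 CPM to between 7.12 and 8.01 CPM. *SAUR26*, *SAUR27* and *SAUR29*, which have adjacent locus numbers, also rose (log2FC 2.89, 2.46 and 2.28), so the share of *SAUR28* may be uncertain too. Of 8 *GH3* genes, which encode enzymes that join auxin to amino acids, 4 rose, led by *GH3.3* at log2FC 2.45. The rise of *GH3.1* (log2FC 1.15) was not called without HRFR replicate 3, without LRFR 1 h replicate 1, or with the 6 *hfr1-101* libraries fitted alone. The auxin efflux carrier gene *PIN3* rose from 147, 147 and 162 CPM to 316, 340 and 360 CPM (log2FC 1.16 ± 0.08). *PIN3* and the influx carrier gene *AUX1* (log2FC 0.63) were the 2 of 17 auxin transport genes called, and the *AUX1* call was lost without LRFR 1 h replicate 3.

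Of 20 brassinosteroid genes tested, 9 rose and 1 fell (median log2FC 0.36). *BIM1*, whose bHLH product binds BES1, a factor of brassinosteroid signalling, rose from 63.2, 63.0 and 63.9 CPM to 345, 422 and 443 CPM (log2FC 2.67 ± 0.08). *BEE1*, a brassinosteroid-induced bHLH gene, had a log2FC of 3.16, the receptor gene *BRI1* 1.03, and *BIM2* 1.23. Enzymes on both sides of the hormone pool were among the genes called: *BAS1*, which inactivates brassinosteroids, rose from between 11.5 and 14.5 CPM to between 47.1 and 55.5 CPM, and *DWF4*, for a synthetic step, rose by 0.80 on the log2 scale. *BR6OX1*, for a late synthetic step, was the gene that fell, from 5.08, 5.09 and 5.46 CPM to 2.46, 2.09 and 2.51 CPM (log2FC -1.15 ± 0.13). The other *BR6OX* gene on the list, *BR6OX2*, rose at a log2FC of 0.69. 

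Of 18 gibberellin genes tested, 6 rose and none fell (median log2FC 0.26). These were the synthesis genes *GA20OX1*, *GA20OX2* and *GA20OX3* (log2FC 1.43, 1.70 and 3.66), the receptor gene *GID1A* (1.27) and the DELLA repressor genes *GAI* and *RGL3* (1.15 and 1.62). *GID1A* went from 8.19, 6.69 and 8.01 CPM to 16.1, 20.4 and 18.7 CPM. *GAI* went from 44.6, 45.3 and 54.6 CPM to 102, 107 and 112 CPM. Synthesis, receptor and repressor genes of this hormone were thus called in 1 direction. Of 12 ethylene synthesis genes, the ACC synthase genes *ACS4*, *ACS8* and *ACS11* rose, *ACS8* from 0.943, 1.17 and 1.83 CPM to 48.0, 62.0 and 61.8 CPM (log2FC 5.46 ± 0.27). Of 15 genes of cytokinin breakdown and type-A response regulators, the cytokinin oxidase genes *CKX5* and *CKX6* rose (log2FC 3.3 and 1.76) and *CKX7* fell (-0.76).

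Of 22 genes of the light-signalling hub around HY5 and COP1, 2 rose (9.09%, beside 1.62% of all genes tested). These were *FHL* (log2FC 2.63), whose protein helps phytochrome A into the nucleus, and the B-box gene *BBX29* (1.65). Of 10 genes of phototropism and the PKS family, *PKS4* rose (log2FC 1.15) and *PKS1*, for a phytochrome kinase substrate, fell from 14.5, 16.7 and 16.5 CPM to 7.09, 6.68 and 7.89 CPM (log2FC -1.14 ± 0.11). Of 25 cell wall genes for expansins and xyloglucan endotransglucosylases, *XTH22*, *XTH33* and *EXPB1* rose (log2FC 1.36, 0.77 and 0.63), with a list median of 0.05. The *XTH33* call was lost without HRFR replicate 2, and that of *EXPB1* without HRFR replicate 1 or LRFR 1 h replicate 3. Of 21 jasmonate genes, *ST2A*, which encodes a sulfotransferase of hydroxylated jasmonate, rose from 1.67, 1.1 and 1.15 CPM to 21.5, 32.7 and 37.1 CPM, and the lipoxygenase genes *LOX3* and *LOX4* fell (log2FC -0.89 and -0.86), though the *LOX4* call was lost on leaving out any 1 of the 6 libraries. *MYB111*, a regulator of flavonol synthesis, was the 1 of 16 flavonoid genes called (log2FC 1.61). None of 19 circadian clock genes, 17 light-harvesting genes or 9 salicylate genes was called, with medians of 0.03, -0.15 and 0.06, and none of these had adjusted p below 0.05. All 17 light-harvesting genes had a negative log2FC, from -0.22 to -0.04, with a median of -0.10 in Col-0. Their summed level was 94764 to 105397 CPM in HRFR and 86474 to 92594 CPM at LRFR 1 h.

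Of the marker lists of other states and cell types, 3 had 1 called member each and 2 had none. In these whole seedlings, fewer cells of a type and less RNA per cell cannot be told apart. None of 11 root or 12 cell division markers was called. Of 13 guard cell and stomatal lineage genes, *KAT1*, for an inward potassium channel, rose from 32.7, 34.9 and 34.8 CPM to 149, 191 and 214 CPM (log2FC 2.44 ± 0.13), and the other 12 were not called. Of 18 handling, heat and cold stress genes, *HSFA2*, a heat shock factor gene, was called at log2FC 1.01, and of 10 dark and sugar starvation genes *SEN1* was called at 1.1. The medians of these lists were 0.26 and 0.32, beside 0.01 over all genes tested. *SEN1* was at 6.76, 5.73 and 9.05 CPM in HRFR and 21.03, 13.94 and 11.04 CPM at LRFR 1 h, so its libraries did not overlap but came close. Its call was lost without HRFR replicate 1 or 2 or LRFR 1 h replicate 1 or 2, and that of *HSFA2* without HRFR replicate 3, without LRFR 1 h replicate 1, or with the 6 *hfr1-101* libraries fitted alone.

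**Figure D3:**
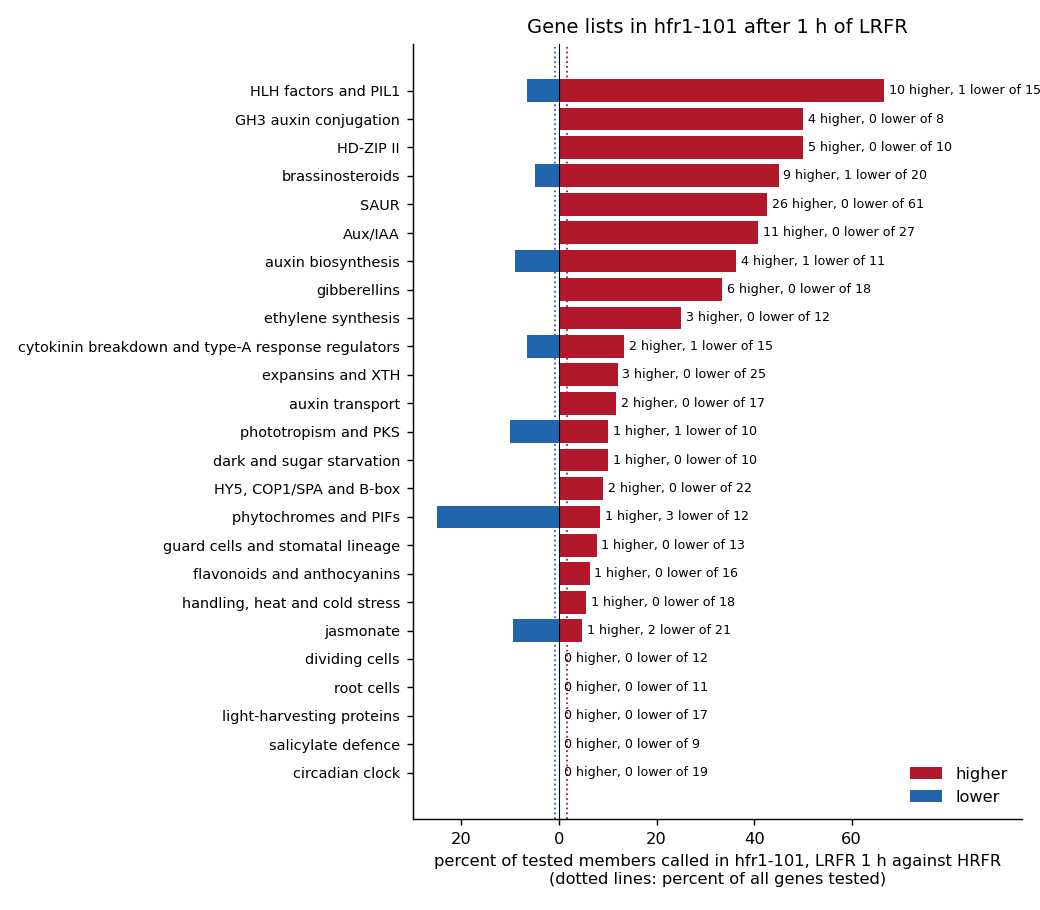
Share of the tested members of 25 gene lists called in *hfr1-101* at LRFR 1 h against HRFR. Bars to the right are members called higher and bars to the left members called lower, in percent, with counts beside them; dotted lines mark 1.62% higher and 0.876% lower over all genes tested. The HLH list reaches 10 of 15, and the clock, light-harvesting, salicylate, root and cell division lists have no called member.

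The 15 largest decreases among genes of at least 1 CPM had log2FC from -2.87 to -1.24. The largest was AT5G45850, a gene of unknown function, from 1.49, 1.33 and 1.69 CPM to 0.110, 0.257 and 0.239 CPM. *LTP*, for a lipid transfer protein, fell from 62.0, 76.4 and 72.3 CPM to 16.3, 19.1 and 21.3 CPM (log2FC -1.89 ± 0.14). *TINY2*, for an AP2-type transcription factor, fell from 3.96, 4.80 and 4.99 CPM to 1.58, 1.32 and 0.996 CPM (log2FC -1.81 ± 0.15). Non-overlap of the HRFR and LRFR 1 h libraries was a condition for entry among these 15. AT1G51805, a leucine-rich repeat kinase gene and the most abundant of the 15, fell from between 160 and 220 CPM to between 67.0 and 85.4 CPM. *TCL2*, for a single-repeat MYB protein that represses trichomes, fell from between 5.33 and 6.11 CPM to between 2.23 and 2.27 CPM, and *EDA6* from between 1.22 and 1.53 CPM to between 0.514 and 0.588 CPM. The rest were AT5G62730, AT5G11610, AT3G50570, AT5G56840, AT2G40200, AT1G78170, *TAA1*, AT1G75710 and AT1G78460. AT2G40200, a bHLH gene, lost its call without HRFR replicate 2.

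PIFs bind the G-box CACGTG and the related E-box CATGTG, so both were looked for in the 300 bases before each annotated gene start in the RefSeq assembly TAIR10.1. CACGTG reads the same on both strands, and CATGTG was searched also as CACATG on the other strand. CACGTG cannot share bases with either form, while the forms CATGTG and CACATG can share 4 bases. CACGTG was present before 51 of the 339 genes that rose in *hfr1-101* (15.04%) and 5 of the 183 that fell (2.73%), beside 7.94% of the genes tested and 5.98% of all 37897 promoters of this length. CATGTG or CACATG was present before 24.2%, 14.8%, 13.1% and 12.9% of these sets. Of the 15 genes with the largest rises, 2 had CACGTG and 3 had CATGTG or CACATG in this window, and *PIL1*, *ATHB2* and *ATHB4* had neither. The study places G-boxes upstream of *PIL1* and in both PIF7 binding sites of *ATHB2*, which this window did not hold. The windows of AT3G21320 and AT1G03990 are shown because they are the 2 among the largest rises with CACGTG, and those of *FHL*, *BEH4*, *PHYB* and *BIM2* because they hold CACGTG at least 2 times and belong to genes of light and brassinosteroid signalling named here. Each is written 5′ to 3′ on the strand of the gene, ends at the base before the gene start, and has CACGTG in capitals.
AT3G21320, chr3:7501889-7502188, minus strand: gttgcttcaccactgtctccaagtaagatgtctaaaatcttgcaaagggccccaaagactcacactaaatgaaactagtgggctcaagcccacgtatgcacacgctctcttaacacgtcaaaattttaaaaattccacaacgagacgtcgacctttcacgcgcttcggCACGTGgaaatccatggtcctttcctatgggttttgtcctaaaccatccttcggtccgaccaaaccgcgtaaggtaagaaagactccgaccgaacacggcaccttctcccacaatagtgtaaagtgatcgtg
AT1G03990, chr1:1024440-1024739, plus strand: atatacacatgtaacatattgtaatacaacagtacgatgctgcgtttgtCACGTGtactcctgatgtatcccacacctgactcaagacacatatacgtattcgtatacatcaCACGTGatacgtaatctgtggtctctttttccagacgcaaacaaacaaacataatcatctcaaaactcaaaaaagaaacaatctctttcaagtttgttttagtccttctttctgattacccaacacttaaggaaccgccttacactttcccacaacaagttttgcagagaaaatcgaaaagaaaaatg
*FHL*, chr5:437065-437364, plus strand: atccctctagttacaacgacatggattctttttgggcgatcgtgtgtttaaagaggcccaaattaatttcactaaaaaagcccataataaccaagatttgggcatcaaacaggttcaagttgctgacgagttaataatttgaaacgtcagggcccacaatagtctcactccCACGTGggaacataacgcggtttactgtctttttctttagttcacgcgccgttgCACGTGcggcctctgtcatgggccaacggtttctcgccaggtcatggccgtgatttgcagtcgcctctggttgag
*BEH4*, chr1:29599049-29599348, plus strand: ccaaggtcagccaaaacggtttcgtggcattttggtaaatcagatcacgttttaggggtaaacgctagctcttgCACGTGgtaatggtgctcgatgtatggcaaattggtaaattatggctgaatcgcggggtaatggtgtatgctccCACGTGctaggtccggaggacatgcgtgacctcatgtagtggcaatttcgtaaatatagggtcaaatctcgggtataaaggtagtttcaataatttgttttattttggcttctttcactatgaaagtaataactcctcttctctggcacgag
*PHYB*, chr2:8139456-8139755, plus strand: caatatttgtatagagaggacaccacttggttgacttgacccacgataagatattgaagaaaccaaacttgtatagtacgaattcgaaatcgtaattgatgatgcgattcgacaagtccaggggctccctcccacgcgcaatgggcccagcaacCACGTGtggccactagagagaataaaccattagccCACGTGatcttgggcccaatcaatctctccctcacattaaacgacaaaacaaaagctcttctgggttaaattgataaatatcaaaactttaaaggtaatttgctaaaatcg
*BIM2*, chr1:25941329-25941628, plus strand: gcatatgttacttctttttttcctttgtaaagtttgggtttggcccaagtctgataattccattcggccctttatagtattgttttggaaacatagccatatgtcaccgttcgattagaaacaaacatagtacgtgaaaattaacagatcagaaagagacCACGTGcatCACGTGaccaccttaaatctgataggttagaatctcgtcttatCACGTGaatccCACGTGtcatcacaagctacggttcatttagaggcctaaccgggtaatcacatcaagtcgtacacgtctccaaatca
*BIM2* held 4 copies, AT1G03990, *FHL*, *BEH4* and *PHYB* held 2 each and AT3G21320 held 1. A match is a description of the letters and not evidence of binding.

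The question of this design is how far the first hour of the response depends on HFR1. In Col-0, 297 genes rose and 143 fell (1.42% and 0.685% of the genes tested). Both genotypes shared 262 of the genes that rose, which is 77.3% of the *hfr1-101* calls and 88.2% of the Col-0 calls. They shared 118 of the genes that fell, or 64.5% and 82.5%. Of the 77 genes called as rising in *hfr1-101* and not in Col-0, 72 had a positive log2FC in Col-0, and of the 65 called as falling 64 had a negative one. The call in 1 genotype alone does not show that the genotypes differ.

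The difference of the responses was tested as an interaction. By edgeR, 0 genes had a higher and 0 a lower response in *hfr1-101* at adjusted p below 0.05 (0% of the genes tested each way). The lowest adjusted p was 0.165, shared by 4 genes. An unadjusted p below 0.05 was found for 513 genes, only 2.46% of those tested, and 293 of them had the higher log2FC in *hfr1-101*. Among all genes tested, 53.7% had the higher log2FC in *hfr1-101*. DESeq2 called 4 genes higher in *hfr1-101* (0.0151% of 26538) and 0 lower. They were the same 4 genes: *BIM1*, *ATHB4*, *GID1A* and *CRF10*, an AP2-type gene, and each had risen in both genotypes. *ATHB4* rose by 5.02 in *hfr1-101* and 3.91 in Col-0 on the log2 scale, *BIM1* by 2.67 and 2.05, *GID1A* by 1.27 and 0.63, and *CRF10* by 1.31 and 0.78. With edgeR, *BIM1*, *ATHB4* and *GID1A* passed without *hfr1-101* LRFR 1 h replicate 1, *BIM1* and *ATHB4* without Col-0 LRFR 1 h replicate 3, and *CRF10* without Col-0 HRFR replicate 1. Of all other genes, none was called without any 1 of the 12 libraries. Col-0 LRFR 1 h replicate 3 had the highest of the 3 Col-0 levels for 242 of the 339 genes that rose in *hfr1-101*, and its part in the comparison is given by these values. The handling, heat and cold stress list had a median log2FC of 0.26 in *hfr1-101* and -0.02 in Col-0, and the dark and sugar starvation list 0.32 and -0.03, and their part in the comparison was not tested.

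**Figure D4:**
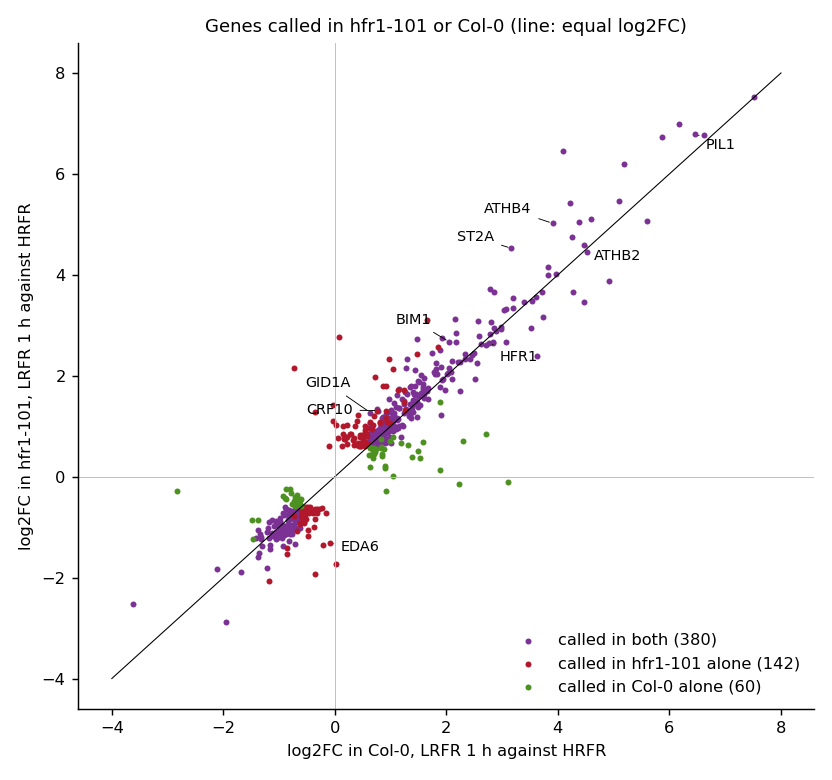
Response of the genes called in *hfr1-101* or Col-0. The x axis is the log2FC in Col-0 and the y axis that in *hfr1-101*, both LRFR 1 h against HRFR; purple points were called in both, red in *hfr1-101* alone and green in Col-0 alone, and the line marks equal log2FC. *ATHB4*, *BIM1*, *GID1A*, *CRF10* and *ST2A* lie above the line, and *PIL1*, *ATHB2* and *HFR1* lie close to it.

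Levels in the 2 genotypes were also compared directly. At LRFR 1 h, 29 genes were higher (0.139%) and 8 lower (0.0383%) in *hfr1-101* than in Col-0. Of the 29, 14 were genes that rose under LRFR: *ATHB4*, *ATHB2*, *HAT3*, *BIM1*, *BEH4*, *DWF4*, *GID1A*, *PAR1*, *ST2A*, *ARF18*, *CRF10*, *BRG3*, AT2G39870 and AT4G14548. Of all genes tested, 1.62% rose in *hfr1-101*. The same *hfr1-101* LRFR 1 h libraries enter both comparisons, so a high level in them favours both calls. By edgeR, *ATHB4* was higher by a log2 value of 1.11 ± 0.11 (adjusted p = 1.1e-06), *BIM1* by 0.62 ± 0.08 (adjusted p = 0.00011) and *ATHB2* by 0.47 ± 0.09 (adjusted p = 0.0284). *ATHB2* was at 156 ± 25.9 CPM in Col-0 and 215 ± 13.7 CPM in *hfr1-101* at LRFR 1 h (SD, n = 3). *ST2A*, with the largest difference of the 14, was at 10.8 ± 2.32 and 30.5 ± 8.02 CPM. The count of 29 depended on single libraries: it was 15 or 16 without Col-0 LRFR 1 h replicate 1 or 2, 47, 19 or 16 without *hfr1-101* LRFR 1 h replicate 1, 2 or 3, and 99 without both Col-0 libraries that stood apart. The count of 8 was 5 without Col-0 LRFR 1 h replicate 2 or *hfr1-101* LRFR 1 h replicate 3.

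In HRFR, 12 genes were higher (0.0575%) and 5 lower (0.0239%) in *hfr1-101* than in Col-0. None of these 17 was called in the response of *hfr1-101* to LRFR. In that response 1.62% of all genes tested rose and 0.876% fell, so the absence of calls among 17 genes says little. Of the 17, 16 differed also at LRFR 1 h. *MRD1* (chr1:19963047-19964712) was at 19.96, 18.45 and 18.5 CPM in *hfr1-101* in HRFR and at a mean of 0.141 CPM in Col-0, and *pif457* had a mean of 12.5 CPM. *QQS*, an orphan gene linked to starch, was at 6.76, 5.59 and 5.35 CPM in *hfr1-101*, with means of 0.800 CPM in Col-0 and 0.590 CPM in *pif457*. *MRD1* overlaps *HEI10*, also called, and the strand setting of the counting is not given in the sources used here, so their reads cannot be told apart.

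In *pif457*, 29 genes rose and 2 fell (0.139% and 0.00958% of the genes tested), and the count of 29 was 19 without *pif457* HRFR replicate 2, while the count of 2 was 0 or 1 without any 1 of the 6 *pif457* libraries other than LRFR 1 h replicate 3. Of the 29, 25 rose in *hfr1-101* too. By the interaction, 255 genes had a higher response (1.22%) and 222 a lower one (1.06%) in *hfr1-101* than in *pif457*. The count of 222 was 135 without *hfr1-101* HRFR replicate 3, 147 without *pif457* HRFR replicate 2, and 351 without the Col-0 libraries that stood apart. Of the 339 genes that rose in *hfr1-101*, 210 were among the 255, and of the 183 that fell, 113 were among the 222. In *pif457* the median log2FC of the 339 was 0.20 and that of the 183 was -0.03; these genes were chosen by their calls in *hfr1-101*, which fixes the side of the threshold on which their values lie there.

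Of the 10 HD-ZIP II genes tested, 5 had a larger response in *hfr1-101* than in *pif457* by the edgeR interaction, and none a smaller one. These 5 are also the ones called in *hfr1-101*, and the same *hfr1-101* libraries enter both tests. In Col-0, *ATHB4*, *ATHB2*, *HAT2*, *HAT3* and *HAT1* rose by 3.91, 4.46, 3.19, 1.36 and 1.04 on the log2 scale. By the edgeR interaction, *ATHB4* rose by 5.02 against 0.82 on the log2 scale (adjusted p = 1.6e-11), *ATHB2* by 4.59 against 2.11 (6.7e-10), *HAT2* by 3.35 against 0.22 (1.0e-12), *HAT3* by 1.80 against 0.19 (2.3e-09) and *HAT1* by 1.1 against 0.35 (2.1e-05). *PIL1* rose by 6.79 against 2.11 (8.9e-05) and *YUC9* by 4.75 against 0.32 (1.4e-08), while *TAA1* changed by -1.37 against -0.18 (1.2e-04). Some responses were large in both mutants: *SAUR22* rose by 4.44 in *hfr1-101* and 3.65 in *pif457*, and *SAUR19* by 3.56 and 3.04, with no difference called. *ATHB2* rose in *pif457* as well, to 19.1 ± 1.96 CPM (SD, n = 3) at LRFR 1 h.

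The study listed 177 shade-raised genes with PIF7 bound nearby, a list chosen on the Col-0 and *pif457* libraries at LRFR 1 h and a published binding data set, and not on *hfr1-101*. Its direction in Col-0 and its smaller response in *pif457* are set by that choice. In *hfr1-101*, 137 of the 177 rose and none fell, with a median log2FC of 1.03 beside 0.92 in Col-0, 0.16 in *pif457* and 0.01 over all genes tested in *hfr1-101*. Of the other 40, 35 were higher at adjusted p below 0.05 with a log2FC of 0.6 or less. The log2FC was larger in *hfr1-101* than in Col-0 for 126 of the 177 (71.2%). That share was 53.7% of all genes tested and 56.6% of the genes called as rising in Col-0. All these genes were read from the same libraries, so they are not separate replicates. By edgeR none of the 177 passed the interaction with Col-0. The 4 genes that DESeq2 called in that interaction, *BIM1*, *ATHB4*, *GID1A* and *CRF10*, are all on the list. The median difference was 0.07 on the log2 scale. The largest rises on the list were AT3G21320, *PIL1*, *FLP1*, *RTFL18*, *ACS8* and *IAA29*, and the smallest log2FC was 0.16, of *FRA1*. The 4 genes listed as lowered and bound, AT2G43340, *ARAB-1*, AT3G57400 and *CIPK15*, had log2FC from -0.54 to -0.29 in *hfr1-101*, and all 4 had adjusted p below 0.05.

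**Figure D5:**
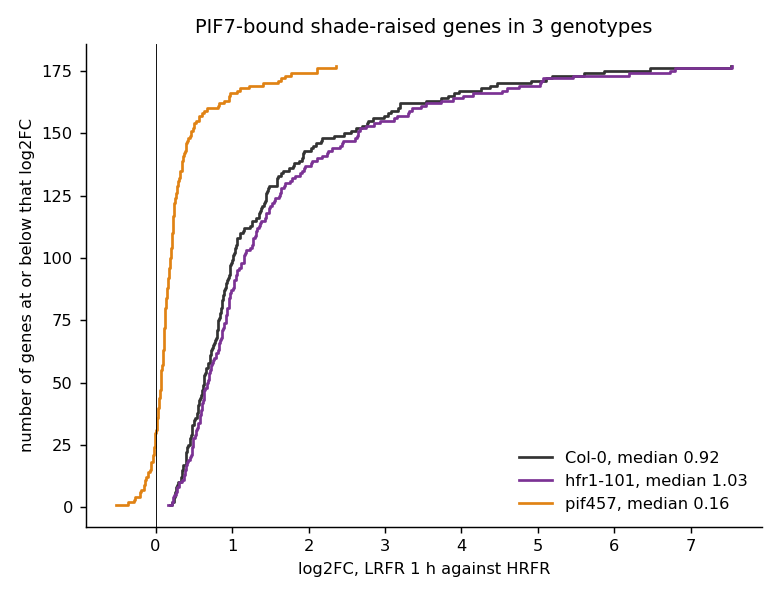
Responses of the 177 PIF7-bound, shade-raised genes. The x axis is the log2FC of LRFR 1 h against HRFR and the y axis the number of genes at or below it, with 1 line per genotype. The *hfr1-101* line lies slightly to the right of that of Col-0 over most of its length, and the *pif457* line far to the left of both (medians 1.03, 0.92 and 0.16).

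The study also sorted the genes that responded to LRFR in Col-0 into clusters by their levels in Col-0 and *pif457*, so their directions in Col-0 and their values in *pif457* are again set by the choice. Of the 274 genes of cluster 1, raised early, 244 rose in *hfr1-101* (median log2FC 1.21, beside 1.15 in Col-0 and 0.22 in *pif457*), and of the 104 genes of cluster 7, lowered early, 84 fell (median -0.89, -0.83 and -0.05). Of the 33 tested genes of cluster 2, 12 rose, with a median of 0.57 in *hfr1-101* and 0.81 in Col-0, where 21 were called. The log2FC was larger in *hfr1-101* than in Col-0 for 155 of the 274 genes of cluster 1 and 11 of the 33 of cluster 2. In cluster 6, 41 of 194 fell and none rose. In clusters 3, 4 and 5, 15 of 288, 2 of 111 and 3 of 144 rose (5.21%, 1.80% and 2.08%), beside 1.62% of all genes tested. In these 3 clusters 4, 0 and 5 fell (1.39%, 0% and 3.47%), beside 0.876% of all genes tested. By edgeR no gene of these clusters passed the interaction with Col-0, and the 4 genes that DESeq2 called there belong to cluster 1.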

How the data were processed

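Whole-seedling RNA-seq was made by the authors with a stranded mRNA kit. Per the labels and the study's methods, reads were trimmed with Cutadapt, rRNA reads were removed, the rest were aligned to TAIR10 with STAR, and htseq-count gave the deposited counts of reads per gene. For versions, the strand setting and reads that match several genes, the sources used here give nothing. Of 34262 genes, 7723 had no read and 20887 passed filterByExpr. Between 6.53% and 6.91% of the reads of the 6 *hfr1-101* libraries fell in no gene and were left out.

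The 27 libraries in 9 groups were fitted with edgeR 4.0.16 (TMM, quasi-likelihood, 18 residual degrees of freedom, Benjamini-Hochberg adjustment) in R 4.3.3. Interactions and genotype contrasts were called at adjusted p below 0.05 alone. The common biological coefficient of variation was 0.0943. P-values measure the spread between pools of seedlings. The fit was also run on simulated counts drawn from its own estimates of the spread, with no library that stands apart. That run cannot vouch for calls that depend on single libraries. Alternatives were DESeq2 1.42.0, RLE scaling, other filters, only the groups compared, a replicate block and leaving out libraries; leaving out libraries in comparisons other than the *hfr1-101* response and its interaction with Col-0, or both Col-0 libraries that stood apart, was chosen after seeing the data.

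The members and lists were chosen with earlier results of these data known. Named were *HFR1* and the *PIF* genes mutated in *pif457*, the 15 strongest rises and 15 strongest falls among called genes with non-overlapping libraries and at least 1 CPM, all HLH and HD-ZIP II members, up to 6 members of each other list and the extremes of the PIF7-bound list. *CRF10*, *BEH4*, *DWF4*, *MRD1*, *QQS*, *HEI10* and the other genes outside this rule were named after their values were seen. Promoters were printed for those of the 15 strongest rises with CACGTG and for other named risen genes with at least 2 copies. Gene names came from RefSeq TAIR10.1, with 32548 IDs matched, and promoter windows were 300 bases read from that genome.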

Additional observations from a re-analysis of the deposited data

Results flagged for a closer look

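The response to 1 h of LRFR differed between *hfr1-101* and *pif457* by the edgeR interaction: 255 genes had a higher and 222 a lower log2FC in *hfr1-101*. Among the genes named, the difference (*hfr1-101* minus *pif457*) was 4.2 for *ATHB4*, 2.48 for *ATHB2*, 3.12 for *HAT2*, 1.61 for *HAT3*, 0.75 for *HAT1*, 4.68 for *PIL1*, 4.43 for *YUC9* and -1.19 for *TAA1* on the log2 scale. All of these genes were also called in *hfr1-101*, and the same *hfr1-101* libraries enter both tests.

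The response differed from that of Col-0 by DESeq2 and not by edgeR for 4 genes. The difference (*hfr1-101* minus Col-0, DESeq2, log2) was 1.12 for *ATHB4* (adjusted p = 0.0308), 0.64 for *GID1A* (adjusted p = 0.0384), 0.62 for *BIM1* (adjusted p = 0.0096) and 0.54 for *CRF10* (adjusted p = 0.0212). Over the alternatives with edgeR, the lowest adjusted p was 0.00824 for *ATHB4* and *BIM1*, 0.0316 for *CRF10* and 0.0345 for *GID1A*, and the highest was 1.0 for each.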

How the results depend on the processing

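Of 250 values of 17 counts under the alternatives, 215 stayed within 1.5 times the first value. Of 1337 values of 103 named genes called in *hfr1-101*, 1311 kept the call and 26 lost it, with none reversed. At adjusted p alone, 533 genes were higher and 493 lower in *hfr1-101*. With only the groups compared, Col-0 had 93 lower genes, the interaction with *pif457* 343 lower, and *hfr1-101* against Col-0 at LRFR 1 h 15 higher and 5 lower. DESeq2 gave 4 genes for the interaction with Col-0, 8 lower in HRFR and 47 higher at LRFR 1 h. Without both far Col-0 libraries these 3 counts were 1, 8 and 99, and the interaction with *pif457* had 351 lower. The 2 lower genes of *pif457* became 1 with RLE scaling, either other filter, or without the far libraries. The cause was not tested.

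Leaving out 1 library gave 304 to 347 higher and 148 to 219 lower genes in *hfr1-101*, 283 to 353 and 107 to 213 in Col-0, and 19 to 24 and 0 to 2 in *pif457*. The interaction with Col-0 gave 0 to 3 higher and 0 lower, and that with *pif457* 210 to 251 and 135 to 263. Against Col-0 there were 8 to 11 higher and 5 to 6 lower genes in HRFR, and 15 to 47 and 5 to 12 at LRFR 1 h. Of the PIF7-bound genes 130 to 141 rose, of cluster 1 232 to 241, and of cluster 7 73 to 86 fell.

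With the replicate block, 346 genes rose and 181 fell in *hfr1-101*, and the interaction with Col-0 had 0 calls. Same-numbered *hfr1-101* libraries deviated together at r = 0.25, 0.15 and 0.073, each sample correlating best with its own number. The Col-0 ones had r of -0.30, 0.05 and -0.10. Between *hfr1-101* and Col-0, same-numbered libraries had r of 0.30, 0.002 and 0.19 at LRFR 1 h and -0.24, -0.04 and 0.04 in HRFR. The labels do not say what a shared number means, and whether it marks a shared batch was not settled.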
